A study of Mus musculus with 5 samples.

Results

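Among the genes measured in 5 libraries of Akt/Notch mouse liver tumours, 80 were higher in every Prox1-overexpressing library and followed the order of Prox1 itself among those libraries. They were selected on their measured values. A gene was taken where its normalised counts averaged at least 50 over the 5 libraries, where Prox1 overexpression (OE) replicate 1 exceeded replicate 2 and replicate 2 exceeded replicate 3, and where replicate 3 exceeded 1.3 times the larger Control value. In all 86 genes met these conditions, of which Prox1, Spib, Gpr83, H19, Akr1c19 and Akr1c21 were left out by name. The remaining 80 were 0.569% of the 14069 genes with a mean of at least 50, in a table of 55397 genes. Because the same contrast chose them, their levels and differences are given as a description, and calls on them by limma, a linear model fitted to every gene, are no independent test.

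The tumours were started in female C57BL/6N mice at 8 weeks of age by hydrodynamic tail vein injection, which delivers plasmids to hepatocytes. All mice received CMV-Sleeping Beauty transposase, pT3-EF1a-AKT and pT3-EF1a-NICD-IRES-rtTA, so that Control tumours too carried AKT, the NOTCH1 intracellular domain and the doxycycline-responsive activator. Control tumours (2 libraries) had pT3-Tre-IRES-GFP, an empty vector, and Prox1 OE tumours (3 libraries) had pT3-Tre-FLAG-mmProx1-IRES-GFP. Doxycycline food (6.25%) from day 21 induced the tagged mouse Prox1 from week 3 to week 4. The EF1a promoter is active in most cell types, the cells are labelled as transformed hepatocytes, and the labels do not say that each library came from its own mouse. The spread between libraries may therefore be partly technical, and collection was either after the week of induction or at the humane endpoint.

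PROX1 is a homeodomain transcription factor of hepatocytes, lymphatic endothelium, lens and other tissues, and it can repress or activate genes. In the liver it acts with nuclear receptors and corepressors, and it is required for hepatocyte migration and growth of the liver bud.

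Prox1 had 4153 and 4664 normalised counts in Control replicates 1 and 2. In Prox1 OE replicates 1, 2 and 3 it had 48090, 11113 and 8231. A normalised count is a read count divided by the library's size factor. The first step, from replicate 1 to replicate 2, was 4.33-fold, and the second was 1.35-fold. Replicate 1 thus stood far above the others, while replicate 3 was 1.76 times the larger Control value. Transgene and endogenous Prox1 reads cannot be told apart in these counts.

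The order shared by these genes was uncommon among genes that were high in Prox1 OE tumours. Of 2088 genes with every Prox1 OE library above 1.3 times the larger Control library, 86 (4.12%) had the order of Prox1. The reverse order, with replicate 3 highest and replicate 1 lowest, held for 900 (43.1%). Replicate 3, 1, 2 from high to low held for 672 (32.2%). Replicate 1, 3, 2 held for 280 (13.4%), replicate 2, 3, 1 for 114 (5.46%) and replicate 2, 1, 3 for 36 (1.72%). Without the Control condition, the order of Prox1 held for 20.9% of all 14069 genes and its reverse for 21.5%. On this scaling most genes above Control were therefore highest in replicate 3, the Prox1 OE library with the least Prox1 RNA. Shares of the orders were not counted under other scalings, and the order of a gene can depend on the scaling.

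**Figure D1:**
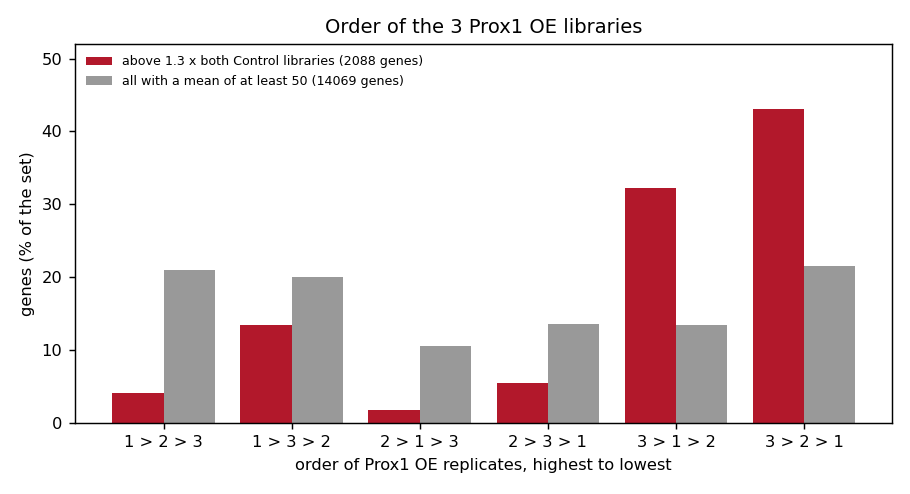
Share of genes, in percent, in each order of the 3 Prox1 OE libraries from highest to lowest, for the 2088 genes above 1.3 times both Control libraries (red) and for all 14069 genes whose mean was at least 50 (grey). The order of Prox1, at the far left, holds 4.12% of the first set and 20.9% of the second, and the reverse order holds 43.1% and 21.5%. Counts are scaled by the deposited size factors only.

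Within the 80 genes the steps were mostly small. The ratio of replicate 1 to replicate 3 had a median of 1.36 and ran from 1.01 for Cryzl2 to 3.91 for Sv2a. It was at least 2 in 12 genes and under 1.1 in 15. Both steps exceeded the 95% counting interval of the reads in 23 genes, 1 step did so in 30, and neither did in 27. For those 27, which include Kcnk16, Cd83, Slc27a4 and Mov10, the order among Prox1 OE libraries was not resolved at this depth of 48740863 to 56629477 reads per library. The counting interval leaves out all variation other than the sampling of reads. No member matched the first step of Prox1, the nearest being Nr4a3 at 2.27-fold.

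**Figure D2:**
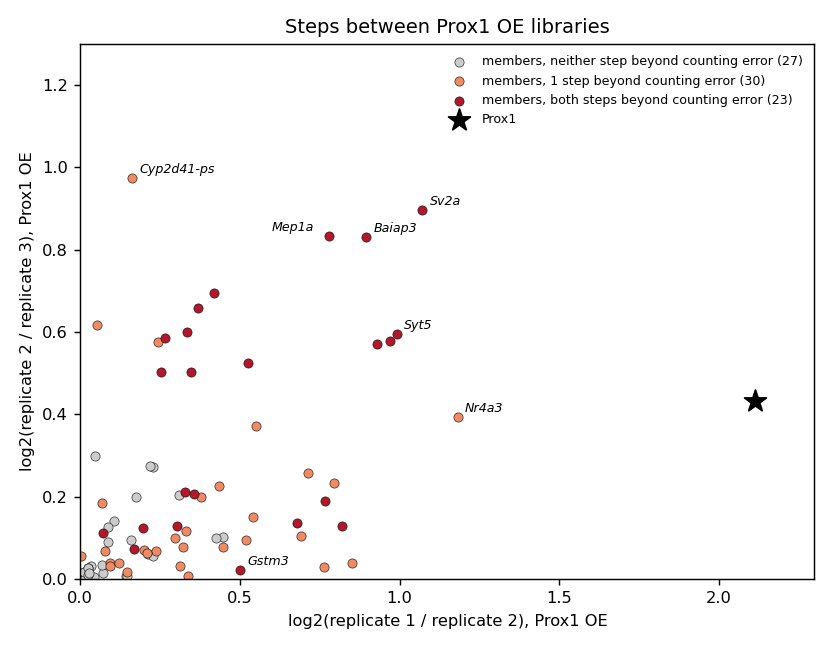
Each point is 1 of the 80 genes, with log2(Prox1 OE replicate 1 / replicate 2) on the x axis and log2(replicate 2 / replicate 3) on the y axis. Colours give whether neither (27), 1 (30) or both (23) steps exceeded the 95% counting interval, and the star marks Prox1, whose log2 first step of 2.11 lies to the right of every member.

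The genes nearest to Prox1 in shape were found from log2 values in the 3 Prox1 OE libraries, each centred on its own mean, by the root mean square difference over those 3 libraries. Sv2a was nearest at 0.43 on the log2 scale, followed by Nr4a3 (0.45), Syt5 (0.50), Baiap3 (0.51), Tmem151a (0.51), Plk5 (0.53), Mep1a (0.56) and Mirg (0.67). The median over the 80 genes was 0.93. Of these 8 genes, Sv2a, Syt5 and Baiap3 encode proteins of secretory vesicles. Likeness over 3 libraries that the selection had already ordered is a description only.

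Membership depended on how the libraries were scaled. With the total count as library size 88 genes met the selection, of which 28 were among the 80. TMM factors gave 100 genes with 72 shared, and upper-quartile factors gave 113 with 68 shared. The 80 genes were also rich in G and C, with a median transcript GC content of 54.5% against 49.6% over all genes with a mean of at least 50. For genes above Control in the other orders it was 50.6% together and 48.4% to 54.8% by order, highest for replicate 2, 3, 1. With all genes of that mean in 5 equal bins of GC content, the order of Prox1 held for 15% of the lowest bin and 26.4% of the highest, and 8 and 37 of the 80 genes lay in them. After each library was centred within bins of GC content, an alternative chosen after seeing the data, 73 genes met the selection and 51 were shared. Transcript length moved with the order as well, from 8.46% of the shortest bin to 29.1% of the longest, yet 20 of the 80 genes were in the shortest bin and 5 in the longest. The part of GC content and length in the selection beyond these values was not tested.

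The 80 genes were low to moderate in level, with a median of 317 normalised counts against 1217 over all genes with a mean of at least 50. Of them, 72 were protein coding and 8 were noncoding RNAs or pseudogenes. They lay on 20 chromosomes, and the closest pair was Mtmr11 and Sv2a on chromosome 3, 9.43 kb apart. Of 376 other genes within 100 kb of a member and with a mean of at least 50, 86 had the order of Prox1. Among all 14069 genes with such a mean, 2945 (20.9%) had that order. Of the 86 neighbours, 5 were also above both Control libraries in every Prox1 OE library, by any margin. The share of all genes meeting this looser condition was not counted. Whether genes near members had the order more often than other genes was not tested.

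The log2 difference of Prox1 OE minus Control, on the log2(normalised count + 1) scale, had a median of 1.02 over the 80 genes and ran from 0.49 for Lgals3bp to 5.26 for Kcnk16. It was at least 1 in 42 genes and at least 3 in 4. limma, fitted over 17105 genes, called 78 of the 80 higher at an adjusted p under 0.05. Over all tested genes it called 17.1% higher and 16.2% lower, with a median log2 fold change of -0.015. Nothing is read from the members' count, since the selection required their values not to overlap. The 2 not called were Nr4a3 and Ncam2. When libraries were scaled by their total count, the median over all genes moved to -0.45, limma called 1472 genes higher and 6856 lower in place of 2933 and 2769, and 38 of the 80 were called higher. The median over the 80 genes was then 0.59 and Lgals3bp was at 0.055. Kcnk16 was at 3.06 with a pseudocount of 10 and at 6.07 in DESeq2.

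**Figure D3:**
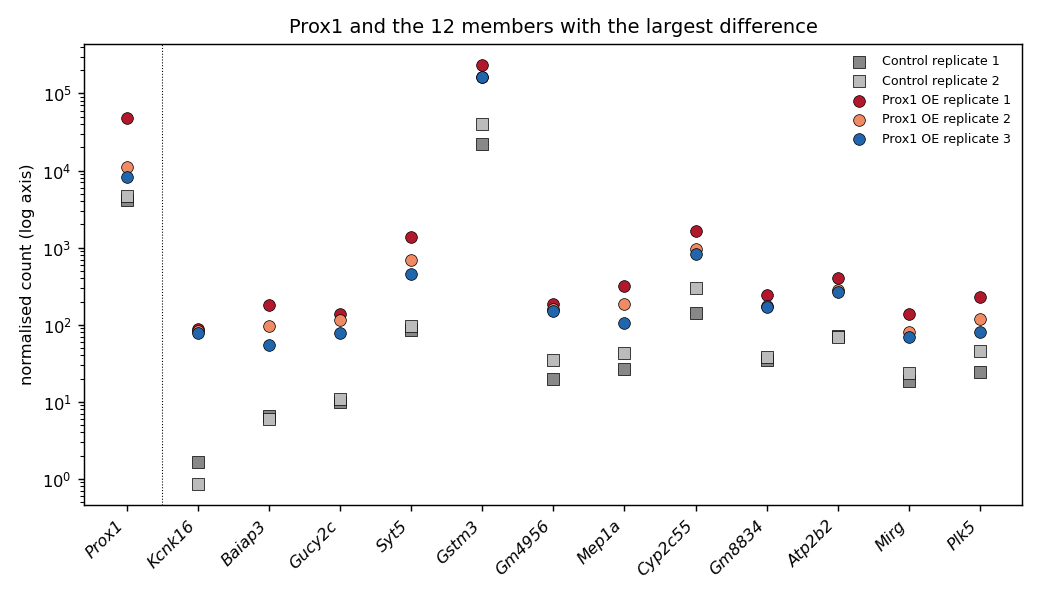
Normalised count on a log axis for Prox1 and the 12 members with the largest log2 difference, 1 point per library (squares, Control; circles, Prox1 OE). Kcnk16 rests on 1 and 2 reads in the Control libraries, and Gstm3 is the most abundant, at 163176 to 234193 normalised counts in Prox1 OE.

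The largest group by role, assigned after the values had been seen, held 17 genes of vesicles, channels and neuronal cells. Their median ratio of replicate 1 to 3 was 1.74 and their median log2 difference 1.25. Syt5, a synaptotagmin that acts as a calcium sensor in exocytosis, had 85.4 and 97.5 normalised counts in Control. In Prox1 OE replicates 1, 2 and 3 it had 1379, 693.8 and 459.5. All 3 lay well above Control, and replicate 1 was 3 times replicate 3. Baiap3, a protein of dense-core vesicle trafficking, had 6.57 and 5.93 in Control and 179.96, 96.8 and 54.4 in Prox1 OE. Sv2a, a glycoprotein of synaptic vesicles, had 25.5 and 21.2 in Control and 181, 86.1 and 46.3 in Prox1 OE. In Sv2a replicate 3 was thus nearer to Control than to replicate 1.

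Kcnk16, a background potassium channel best known from pancreatic beta cells, had 1.64 and 0.848 normalised counts in Control, which were 2 reads and 1 read. In Prox1 OE it had 89, 83.8 and 78.7. The ratio of group totals was 67.1, with a 95% counting interval of 22.7 to 328 from 3 Control reads. Its Prox1 OE values barely differed among themselves, so that Kcnk16 had the largest difference from Control and one of the flatter shapes. Atp2b2, a plasma membrane calcium pump, had 70.7 and 68.7 in Control and 409, 285.6 and 267.3 in Prox1 OE. Plk5, an atypical polo-like kinase known from brain, had 24.6 and 45.8 in Control and 229, 120.4 and 81 in Prox1 OE. Tmem151a, a transmembrane protein, had 67.4 and 71.2 in Control and 467.3, 238.4 and 159.7 in Prox1 OE.

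Relatives of these genes were listed after the values had been seen. Of 16 other synaptotagmins 10 passed the filter on low values, and limma called Syt3 and Syt7 higher and Syt8 lower. Syt7 had 919.3 and 739.2 in Control and 1730, 1584 and 1135 in Prox1 OE, the order of Prox1 with all Prox1 OE libraries above Control, and missed the selection only by the factor of 1.3. Syt11, Syt15 and Syt17 had the order without lying above Control throughout. Sv2b and Sv2c had at most 5.11 normalised counts in any library. Of the other plasma membrane calcium pumps, Atp2b4 was called lower (log2 fold change -1.04 ± 0.18 (SE), limma adjusted p = 0.0064). Of 20 general neuronal and neuroendocrine markers 10 were tested, 1 was called higher and 3 lower (5 under the total count), 1 had the order of Prox1 at any Control level, and 5 had 3 reads or fewer in every library. Snap25 was at 0 throughout and Chga had at most 1.02 normalised counts. The summed level of the list was 6833 and 7258 in Control and 3768 to 4716 in Prox1 OE. Of 17 pancreatic acinar and islet markers, set beside Kcnk16, 6 were tested, 1 was called higher (Cela1) and 3 lower, and 3 had the order of Prox1 at any Control level. Ins1, Ins2 and Sst were at 0 in all libraries, and Pdx1 had 350.8 and 413.7 in Control and 19.7 to 84.9 in Prox1 OE. The pancreatic list summed to 43459 and 48600 in Control and 3778 to 4397 in Prox1 OE, and without Gp2, left out after its values had been seen, to 4302 and 4648 in Control and 3702 to 4203 in Prox1 OE.

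Promoter sequence is shown for the members nearest to Prox1 in shape, or with the largest difference, whose window lay outside every annotated protein-coding gene. Mirg was left out by name. Zfpm1, a member with the PROX1 motif before its start, was added by name, and its window lies in an intron of the long read-through gene model Gm20388. Windows are the 250 bases before the RefSeq start on GRCm38.p6, 5′ to 3′ on the gene's strand. Capitals mark AAGACG, a core motif of PROX1, and GGGCGG, the GC box bound by SP1, on either strand.
Zfpm1, chr8:122281891-122282140, plus strand: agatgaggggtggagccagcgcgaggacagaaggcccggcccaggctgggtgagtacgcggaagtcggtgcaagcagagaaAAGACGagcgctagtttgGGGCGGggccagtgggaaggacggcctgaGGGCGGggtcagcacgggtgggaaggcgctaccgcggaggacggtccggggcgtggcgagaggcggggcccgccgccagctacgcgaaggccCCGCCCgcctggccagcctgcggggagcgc
Baiap3, chr17:25256365-25256614, minus strand: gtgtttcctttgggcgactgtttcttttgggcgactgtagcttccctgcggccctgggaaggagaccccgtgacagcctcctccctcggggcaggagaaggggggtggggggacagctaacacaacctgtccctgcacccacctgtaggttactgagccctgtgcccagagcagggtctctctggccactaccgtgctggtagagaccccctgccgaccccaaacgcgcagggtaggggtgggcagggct
Plk5, chr10:80356209-80356458, plus strand: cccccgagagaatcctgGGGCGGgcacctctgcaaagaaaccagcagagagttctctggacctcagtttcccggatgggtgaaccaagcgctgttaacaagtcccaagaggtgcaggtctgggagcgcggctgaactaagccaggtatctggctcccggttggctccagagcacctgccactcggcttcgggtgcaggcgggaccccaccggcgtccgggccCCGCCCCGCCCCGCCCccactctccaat
Kcnk16, chr14:20269270-20269519, minus strand: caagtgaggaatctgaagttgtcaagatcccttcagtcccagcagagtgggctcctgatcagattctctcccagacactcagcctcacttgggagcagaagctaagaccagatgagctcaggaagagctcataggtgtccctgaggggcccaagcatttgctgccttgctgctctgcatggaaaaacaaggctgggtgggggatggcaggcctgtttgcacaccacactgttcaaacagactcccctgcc
In Zfpm1 this motif began 169 bases before the start. Of the 4 windows it was the only one with AAGACG, while GGGCGG occurred 3 times in Zfpm1, 4 times in Plk5 and not in Baiap3 or Kcnk16.

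RefSeq promoters, here 250 bases before to 50 bases after a start, were found for 63 of the 80 genes (95 promoters) and for 32851 promoters in all. AAGACG was present in 3 of the 95 (3.16%), in Atp9a, Meg3 and Zfpm1, against 5.4% of all promoters. The motif of paired PROX1 sites, facing each other, was in 0 of the 95 and in 0.253% of all. GGGCGG was in 44.2% against 35.7%, and TGACTCA, the AP-1 motif, in 10.5% against 5.2%. A control sequence, GCANNNTGC, was in 12.6% against 7.5%, a like excess to that of AP-1. CCAAT was in 28.4% against 37.4%, TATAAA in 8.42% against 13.6% and TGTTTAC, for FOXA, in 1.05% against 3.65%. GAGGAA, the ETS core bound by SPI1 and SPIB, was in 30.5% against 28.3%. CAAAGTCCA, for HNF4A, was in 2 member promoters, of Muc13 and Plcxd1 (2.11% against 0.475%). The median GC content of these windows was 57.7% in members against 52.7% in all. Matches were counted on both strands, GGGCGG matches could overlap, and promoters of 1 gene can share bases. They describe letters within these windows and give no binding.

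A second group of 9 genes is known from gut and mucosal epithelium. Their median log2 difference was 1.34, with a median ratio of replicate 1 to 3 of 1.69. Gucy2c, the intestinal receptor for guanylin and uroguanylin, had 9.86 and 11 normalised counts in Control and 137, 115.6 and 77.5 in Prox1 OE. The genes of its ligands did not rise with it. Guca2a, encoding guanylin, had 32.9 and 30.5 in Control and 13.3, 10.6 and 8.1 in Prox1 OE (log2 fold change -1.51 ± 0.41 (SE), limma adjusted p = 0.028). Guca2a thus had the order of Prox1 among Prox1 OE libraries, at a level below Control. Guca2b, encoding uroguanylin, had 97.8 and 50 in Control and 35.4 to 54.2 in Prox1 OE, and was not called (limma adjusted p = 0.24).

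Mep1a, the alpha subunit of the brush border protease meprin, had 26.3 and 42.4 in Control and 322.1, 187.6 and 105.3 in Prox1 OE. Mep1b, its partner subunit, had at most 3.47 in any library. Krt20, an intermediate filament protein of differentiated gut epithelium, had 253.9 and 183.1 in Control and 1008, 839 and 559 in Prox1 OE. Krt7 and Krt19, keratins of bile duct cells, fell in the same tumours (log2 fold changes of -2.50 ± 0.28 and -2.41 ± 0.15 (SE), limma adjusted p = 0.0024 and 0.0014). Among Prox1 OE libraries Krt7 had the order of Prox1, at 636, 371.7 and 317.1, and Krt19 did not. Muc13, a membrane mucin, had 316.3 and 193.3 in Control and 881.4, 689.1 and 597.2 in Prox1 OE. Muc20, another membrane mucin, fell (log2 fold change -3.43 ± 0.62 (SE), limma adjusted p = 0.0069). Muc1 had the order of Prox1 below both Control values, at 566.5, 394.1 and 107.6 in Prox1 OE, and was not called.

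Cdhr5, a protocadherin of microvilli, had 2428 and 2480 in Control and 5062, 4502 and 4283 in Prox1 OE. Spink1, a trypsin inhibitor, had 651.5 and 600.1 in Control and 1807, 1128 and 1027 in Prox1 OE. Both were present in Control tumours. Of 17 intestinal and M cell markers 13 were tested, 4 were called higher and 6 lower, with a median log2 fold change of -0.62. Among Prox1 OE libraries 6 of the 13 had the order of Prox1 at any Control level, Spib among them. Alpi was at 0 in all libraries and Cdx2 had at most 1.70 normalised counts. The summed level of the list was 49672 and 55851 in Control and 21282 to 25103 in Prox1 OE. Much of the Control sum was Gp2, at 39158 and 43952 in Control and 48.6 to 513.3 in Prox1 OE. Without Gp2, left out after its values had been seen, the list summed to 10514 and 11899 in Control and 21205 to 24590 in Prox1 OE, so that this gene set the direction of the sum.

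The 5 genes of xenobiotic metabolism had the largest median log2 difference of any role, 1.93. Gstm3, a glutathione S-transferase of the mu class, had 22406 and 39638 normalised counts in Control. It had 234193, 165573 and 163176 in Prox1 OE. It was by far the highest member per kilobase, at 95345 normalised counts per kb of exon, and replicates 2 and 3 were nearly level. Cyp2c55, a cytochrome P450, had 143 and 297.5 in Control and 1621, 953.4 and 836.8 in Prox1 OE. Control replicate 1 had 0.565 times the value of replicate 2 for Gstm3 and 0.48 times for Cyp2c55.

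No other Gstm or Cyp2c gene had the order of Prox1 among the Prox1 OE libraries. Of 6 other Gstm genes limma called 5 higher and none lower. Gstm1 had 90063 and 126876 in Control and 448317, 457711 and 494076 in Prox1 OE, so that replicate 1 was lowest. Of 13 other Cyp2c genes 11 were tested and 6 were called higher. Cyp2c29 had 15390, 18756 and 27080 in Prox1 OE replicates 1, 2 and 3, the reverse of Cyp2c55. Reads shared between near-identical copies could be divided among these genes, and how they were counted is not given in the sources used here. Gstm3 and Cyp2c55 were the members in a list of targets of the xenobiotic receptors CAR and PXR, of which 17 of 20 tested were called higher and 1 lower, with a median log2 fold change of 2.18. Of those 20, 3 had the order of Prox1. Among 20 targets of the oxidative stress factor NRF2, which also hold Gstm3, 12 were called higher and 1 lower.

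Maoa, the mitochondrial monoamine oxidase A, had 1181 and 985 in Control and 1987, 1732 and 1589 in Prox1 OE. Mgst2, a microsomal glutathione transferase, had 18.9 and 28 in Control and 102.2, 82.6 and 71.8 in Prox1 OE. The pseudogene Cyp2d41-ps had 19.7 and 19.5 in Control and 104.3, 93.2 and 47.5 in Prox1 OE, with the largest second step of the 80 genes.

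Of the 14 genes of lipid and energy metabolism the median log2 difference was 0.98, and the ratio of replicate 1 to 3 was small (median 1.19). Cidec, which enlarges lipid droplets by fusion, had 3251 and 2878 normalised counts in Control and 9575, 9559 and 9195 in Prox1 OE. Srebf1, the transcription factor that drives fatty acid synthesis, had 6887 and 7196 in Control and 12316, 11547 and 11242 in Prox1 OE. Slc27a4, a fatty acid transport protein, had 3476 and 3847 in Control and 6757, 6683 and 6670 in Prox1 OE. In these 3 genes the Prox1 OE libraries were close together, and the log2 differences were 1.63 for Cidec, 0.73 for Srebf1 and 0.87 for Slc27a4.

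Steeper shapes in this group came from genes of lower level. Aqp7, a glycerol channel, had 56.7 and 59.3 in Control and 215.7, 149.9 and 104.2 in Prox1 OE. Smpd3, a neutral sphingomyelinase, had 735.3 and 985.8 in Control and 2535, 1407 and 1369 in Prox1 OE. Plcxd1 had 50.1 and 50.9 in Control and 230.1, 172.3 and 106.5 in Prox1 OE, the largest ratio of replicate 1 to 3 in the group at 2.16. Oplah, the oxoprolinase of the glutathione cycle, had 3494 and 3386 in Control and 5140 to 5313 in Prox1 OE.

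Many genes of the pathways around these were called higher. The order of Prox1, which held for 4.12% of all genes above Control and 20.9% at any Control level, is counted beside them as a description. Of 19 tested genes in a list of lipid droplet and PPARG targets limma called 17 higher and 0 lower, with a median log2 fold change of 1.35, and 1 of the 19 had the order of Prox1. With the total count as library size 11 were higher and 1 lower. Cidea and Cideb, relatives of Cidec, rose (log2 fold changes 1.81 ± 0.24 and 1.62 ± 0.17 (SE), limma adjusted p = 0.0030 and 0.0024). Of 18 genes of fatty acid synthesis 14 were called higher and 0 lower (13 and 2 under the total count), and 1 had the order, which was Srebf1 itself. Srebf2, which drives cholesterol synthesis, had 4745 and 4849 in Control and 4004 to 4166 in Prox1 OE and was not called (limma adjusted p = 0.13). Of 5 other fatty acid transport proteins 2 were called higher and 0 lower, with log2 fold changes of -0.93 to -0.36 for the 3 not called. Those higher were Slc27a2 and Slc27a5, which hepatocytes express (log2 fold changes 1.55 ± 0.19 and 1.78 ± 0.24 (SE), limma adjusted p = 0.0026 and 0.0031). Slc27a1, not called, had the order of Prox1, at 2440, 2293 and 1522 in Prox1 OE.

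**Figure D4:**
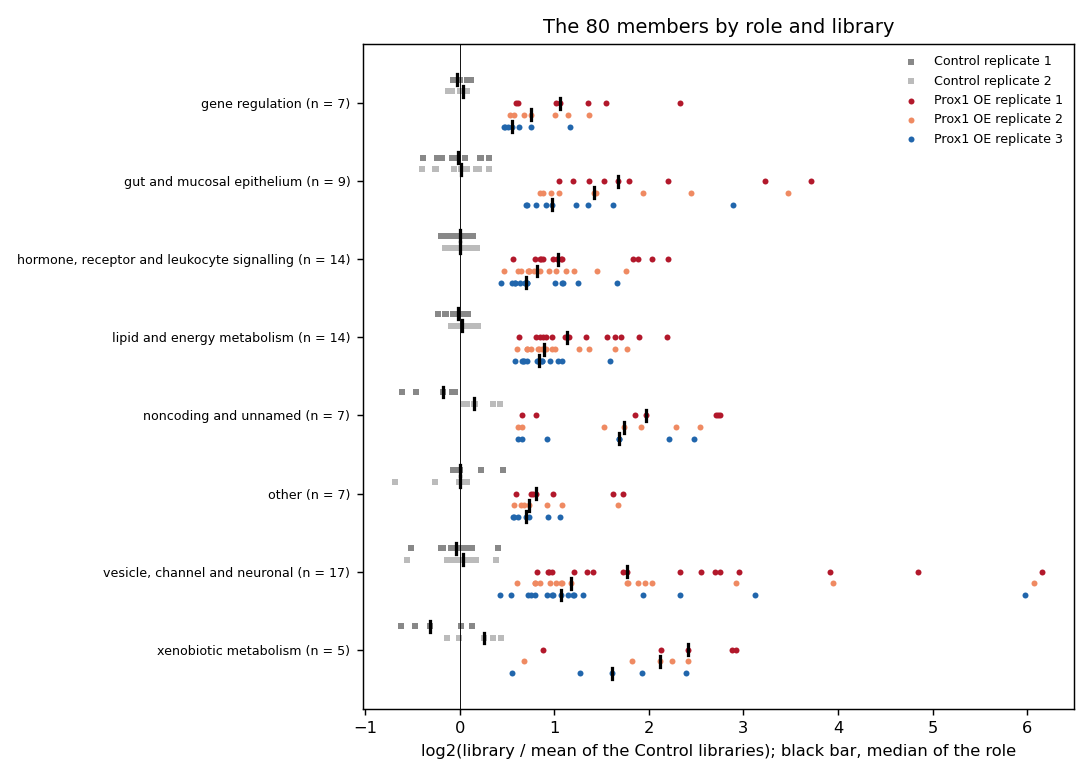
Log2 of each gene's value in a library over its Control mean, by role (8 roles, 80 genes), with black bars for the median of each role and library. In each role the median is higher in Prox1 OE replicate 1 than in replicate 3, as the selection requires, with 2.41 and 1.61 for xenobiotic metabolism, 1.77 and 1.07 for vesicles, channels and neuronal cells, and 1.67 and 0.97 for gut and mucosal epithelium.

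Among 14 genes of hormones, receptors and leukocyte signalling, the median log2 difference was 0.84. Inhbe, a liver-derived subunit of activin E, had 1870 and 2029 normalised counts in Control and 7955, 4511 and 4128 in Prox1 OE. Inhbc, a related liver subunit, rose but stood in the reverse order, at 2311, 2902 and 3543 in Prox1 OE replicates 1, 2 and 3 (log2 fold change 1.17 ± 0.18 (SE), limma adjusted p = 0.0045). Inhbb fell (log2 fold change -1.68 ± 0.27 (SE), limma adjusted p = 0.0048). Sucnr1, the receptor for succinate, had 224.3 and 291.6 in Control and 953, 561.7 and 550.9 in Prox1 OE. Tbxa2r, the thromboxane receptor, had 37 and 47.5 in Control and 150.3, 115.6 and 100.7 in Prox1 OE.

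Several members are known from leukocytes. Cd83, of mature dendritic and B cells, had 216.9 and 200 in Control and 428.4, 421.3 and 417.8 in Prox1 OE. Cd37, a tetraspanin of B cells, had 152 and 123.8 in Control and 289.4, 249 and 206 in Prox1 OE. Lgals3bp, a secreted galectin-binding glycoprotein, had 7659 and 7721 in Control and 11320, 10620 and 10396 in Prox1 OE, with the smallest difference of the 80 genes.

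Marker lists of leukocytes differed from each other in level and order. T cell markers (23 genes, all detected) summed to 1366 and 1358 in Control and 2528, 2989 and 3068 in Prox1 OE replicates 1, 2 and 3. Of 21 tested 11 were called higher, 0 lower and 0 had the order of Prox1, and with libraries scaled by their total count 5 were called higher. B and plasma cell markers summed to 10397 and 11631 in Control and 12502 to 14158 in Prox1 OE. Without Xbp1, which had most of that sum and is expressed beyond B cells, they summed to 1025 and 1043 in Control and 1766 to 2268 in Prox1 OE. Dendritic cell and MHC class II markers summed to 28844 and 24150 in Control and 46022 to 62439 in Prox1 OE. Of 16 tested dendritic markers 9 were called higher, 5 under the total count, and 3 had the order. Kupffer cell markers summed to 27884 and 30019 in Control and 47356 to 63806 in Prox1 OE. Of 14 monocyte and macrophage markers 9 had the order of Prox1 among Prox1 OE libraries, while 0 were called higher and 1 lower, with a median log2 fold change of 0.53, and 3 were higher under upper-quartile factors. They summed to 810067 and 730126 in Control and 536659 to 714442 in Prox1 OE. That fall in the sum was Spp1, osteopontin, a gene also listed for cholangiocytes and singled out after its values had been seen. Without Spp1 the sum was 25318 and 18116 in Control and 46986, 25617 and 27341 in Prox1 OE, so that all Prox1 OE libraries lay above Control, replicate 2 by little. The part of other cells in the members' values was not tested. In dissected tumours, more cells of a type and more RNA per cell cannot be told apart.

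**Figure D5:**
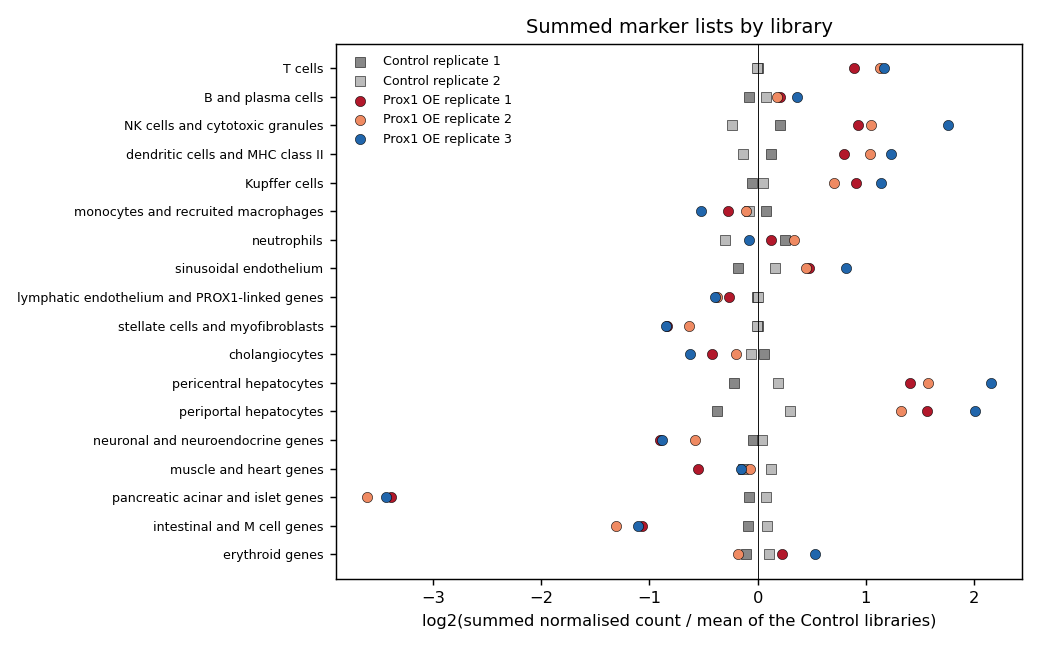
Log2 of the summed normalised count of each marker list over the mean of the 2 Control libraries, 1 point per library. Hepatocyte lists lie above 0 in all Prox1 OE libraries and are highest in replicate 3, and the intestinal, neuronal and pancreatic lists lie below 0. The fall of the pancreatic sum was mostly Gp2. The intestinal sum without Gp2 and the monocyte and macrophage sum without Spp1 were above both Control libraries in all Prox1 OE libraries.

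The labelled cell type was checked against defining markers. Pericentral hepatocyte markers summed to 93537 and 124443 in Control and 289225, 324712 and 486765 in Prox1 OE replicates 1, 2 and 3, and periportal markers to 607484 and 965290 in Control and 1966263 to 3160790 in Prox1 OE. Albumin took 1.11% and 1.74% of reads in Control and 2.71% to 3.96% in Prox1 OE. Cholangiocyte markers summed to 884241 and 816983 in Control and 551925 to 742055 in Prox1 OE, and without Spp1 to 99492 and 104973 in Control and 42608 to 53230 in Prox1 OE. Hepatocyte markers were present in every library, and the order of Prox1 held for 0 of 18 pericentral, 1 of 18 periportal and 7 of 19 cholangiocyte genes at any Control level.

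The 7 genes of gene regulation had a median log2 difference of 0.82. Nr4a3, an orphan nuclear receptor, had 42.7 and 38.1 normalised counts in Control and 203.5, 89.7 and 68.3 in Prox1 OE. Replicate 1 stood well above the other libraries. Its relatives Nr4a1 and Nr4a2 were not called (limma adjusted p = 0.43 and 0.24). Nr4a2 had the order of Prox1 at a low level, with 31.7, 23.6 and 17.4 in Prox1 OE. Zfpm1, also called FOG1, a cofactor of GATA factors, had 994.1 and 1101 in Control and 2185, 1770 and 1620 in Prox1 OE. Hdac5, a class IIa histone deacetylase, had 1964 and 1973 in Control and 3012, 2852 and 2720 in Prox1 OE. Hdac4, of the same class, fell (log2 fold change -0.48 ± 0.15 (SE), limma adjusted p = 0.047). Hdac4 and Hdac7, the latter not called (limma adjusted p = 0.34), also had the order of Prox1 among Prox1 OE libraries.

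Among noncoding members, Meg3 and Mirg belong to the imprinted Dlk1-Dio3 region of chromosome 12, where maternally expressed RNAs host many small RNAs. Meg3, at 109541001 to 109571726, had 158.6 and 326.3 normalised counts in Control and 877.3, 696.2 and 459.5 in Prox1 OE. Mirg, at 109729764 to 109749460, had 18.9 and 23.7 in Control and 139.1, 80.2 and 68.3 in Prox1 OE. Rian, a maternally expressed RNA of the same region, had 224.3 and 361.1 in Control and 1059, 486.2 and 526.6 in Prox1 OE, and rose (log2 fold change 1.18 ± 0.36 (SE), limma adjusted p = 0.041). Its replicates 2 and 3 stood in the other order. Dlk1, the paternally expressed neighbour, had 138.8 and 189 in Control and 48.1, 36.6 and 18.5 in Prox1 OE, and fell (log2 fold change -2.30 ± 0.42 (SE), limma adjusted p = 0.0073). Within Prox1 OE, Dlk1 was also highest in replicate 1 and lowest in replicate 3, and Rtl1 had at most 6.13 normalised counts. These relatives were chosen after the values had been seen.

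Meg3 was the only member in a list of 18 oncofetal and progenitor genes. Of 11 tested, 2 were called higher and 4 lower, the median log2 fold change was -0.80, and 7, Meg3 included, had the order of Prox1 at any Control level. Afp, the fetal liver protein, had 138.8 and 165.3 in Control and 431.5, 208.9 and 137.7 in Prox1 OE, so that replicate 3 lay just below Control, and it was not called (limma adjusted p = 0.31).

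The unnamed noncoding genes were Gm4956, Gm8834, Mrgprb11-ps, 5033406O09Rik and 4930556M19Rik. Gm4956, a transcribed pseudogene, had 19.7 and 34.8 in Control and 183, 158.1 and 151.6 in Prox1 OE. Gm8834, a processed pseudogene, had 34.5 and 38.1 in Control and 241.3, 177 and 167.8 in Prox1 OE. Where a pseudogene and its parent gene share sequence, their reads cannot be told apart.

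The last 7 genes had other roles, with a median ratio of replicate 1 to 3 of 1.13. Crygn, a crystallin of the lens, where PROX1 is known to act, had 80.5 and 36.4 in Control and 193.3, 186.4 and 121.5 in Prox1 OE. Of 17 lens genes, crystallins for the most part, 6 were tested, and apart from Crygn none was called higher and 1 was called lower. Atp9a, a phospholipid flippase, had 4791 and 5255 in Control and 8463, 8058 and 7460 in Prox1 OE.

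At the edge of the selection, Nol3, Ncam2 and Nlrx1 lay just inside the factor of 1.3, with Prox1 OE replicate 3 at 1.31, 1.32 and 1.34 times the larger Control value. Slc7a3, Sprn and Ptpro lay just outside, all within 0.01 of the factor. For the mean of 50, Kcnk16 (50.8), Rhof (56) and Hist3h2ba (56.1) lay just inside. Gipc3 (48.2), Slc5a5 (43.5) and Gm3839 (39.1) lay just outside. Slc5a5, the iodide transporter, had 8.22 and 3.39 in Control and 145.2, 31.9 and 28.9 in Prox1 OE, a shape close to that of Prox1.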

How the data were processed

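RNA from dissected tumours was sequenced by the authors as 2 x 100 base pairs from 5 strand-preserving dUTP libraries and mapped to mm10 with STAR, per the study's methods. The counting tool is not given in the sources used here. The authors deposited a signal per gene and library, namely a normalised count (reads divided by a DESeq2 size factor). All values (100%) were whole multiples of 1 read within 0.01. The number of unassigned columns was 0. Columns of the authors' own comparison (a mean, a shrunken log2 fold change, and raw, adjusted and reweighted p-values) were not used.

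Genes were tested with limma 3.58.1 (R 4.3.3; lmFit, eBayes with trend) on log2(normalised count + 1), for genes with a mean of at least 10, two-sided, and called at a Benjamini-Hochberg adjusted p under 0.05. This scale understates changes of low genes. edgeR 4.0.16 and DESeq2 1.42.0 on recovered reads, other scalings, pseudocounts and filters, a replicate block and each library left out were alternatives. The fit was tested on simulated data. Replicates were distinct libraries (chi-square per degree of freedom of 39.6 to 126 between pairs). Totals ran from 48740863 to 56629477 reads; intervals cover counting error only.

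The members and gene lists were chosen with earlier results of these data known. Named genes were the 12 members with the largest difference, the 8 nearest to Prox1 in shape, the 8 highest per kilobase, up to 4 members per gene list, and genes at each threshold; others named were chosen after their values were seen. Annotation was GENCODE vM21 (GRCm38, equal to mm10), in which 99.5% of identifiers were found. Promoters came from RefSeq on GRCm38.p6.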

Additional observations from a re-analysis of the deposited data

How the results depend on the processing

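The selection of 80 genes gave 88 to 113 genes under other scalings and 64 or 116 with a minimum mean of 100 or 20. It gave 190 genes with a factor of 1.1 over the larger Control library and 25 with a factor of 2, 29 where each step had to be at least 1.1-fold, and 23 where both steps had to exceed the counting interval, an alternative added after seeing the data. With 1 library left out, and so fewer conditions, it gave 111 to 1069 genes. With the total count as library size 1472 genes were called higher and 6856 lower, and 38 members were called. With 1 library left out, 891 to 3729 genes were called higher, 620 to 3765 lower and 25 to 78 members higher. Without Control replicate 1 the counts were 891, 620 and 25, without Control replicate 2 they were 1552, 947 and 40, and without Prox1 OE replicate 2 1737 were lower. The lone Control library was then assumed to vary like the others. Under the remaining alternatives these counts stayed within 1.5 times their main values.

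With the replicate number as a replicate block, which leaves out Prox1 OE replicate 3, 2646 genes were called higher, 2541 lower and 80 members higher. Deviations of libraries with the same replicate number were weakly correlated over genes (0.14 and 0.016). Both values use the same difference between the Control libraries, so they do not settle whether replicate numbers pair the samples. Of 384 values of the 24 named members under alternatives, 349 moved by less than the spread between replicates, 35 moved by more, and 0 changed sign. Much of this count was fixed in advance. Other filters on low values and limma without trend cannot move a fold change. The replicate block gave the same fold changes as leaving out Prox1 OE replicate 3. The selection put every Prox1 OE value above both Control values, so pseudocounts or leaving out a library could not change a sign. Of 48 counts for lists that hold a member, 43 stayed within 1.5 times. No group had over 3 libraries, so single outlying samples were not tested for.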
